A study of Mus musculus with 12 samples.

Results

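The regions described here were the accessible chromatin peaks whose nearest annotated gene was an olfactory receptor. They were the rows of the pooled peak list whose gene symbol began with Olfr followed by a number, which gave 195 of 84243 peaks, and the other 84048 peaks served as the comparison. The 195 peaks named 130 receptor genes on 16 chromosomes. All 195 lay on autosomes, and 0 of them named a gene with a pseudogene symbol.

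Olfactory receptors form the largest gene family of the mouse genome. They encode G protein-coupled receptors that bind odorants at the cilia of olfactory sensory neurons, and each neuron selects a single receptor allele while the other copies stay in compact heterochromatin. The genes are short, carry their coding sequence in a single exon and stand in tandem clusters, with the class I, or fish-like, receptors gathered in a single cluster that also encloses the beta-globin genes. The receptors have no established role in making blood, and no expression was measured here.

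The list came from an assay for transposase-accessible chromatin by sequencing (ATAC-seq), in which a transposase cuts open DNA. Cells of 6 kinds were sorted from wild-type C57BL/6 mice aged 8 to 12 weeks, with 2 samples each. Hematopoietic stem cells (HSCs), megakaryocyte progenitors (MkPs), erythroid progenitors (EPs), granulocyte/macrophages (GMs) and B cells came from bone marrow, and T cells came from thymus. The list pooled all 12 samples and gave no value for a sample or cell type, so it could not be said which cells opened a given peak, the sorted identities could not be checked against marker genes, and the depth behind each peak is unknown. The comparisons below are therefore counts and medians of regions, with 95% Wilson intervals that cover counting error only, and no test between cell types was possible.

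The following sequences show what these peaks contain at the places on which the results turn. The first 3 are the receptor promoter peaks that lie upstream of a transcription start site (TSS), the next 3 flank the beta-globin genes, and the last 2, chosen after their values were seen, are listed under a receptor but lie at antigen receptor gene segments. Each is the plus strand of GRCm38 (mm10), 5′ to 3′, over the central 200 bases of the peak, or the longest stretch of them outside annotated untranslated regions. Capitals mark matches on either strand to the motifs searched, which are given further on.

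Olfr658, chr7:104647306-104647423: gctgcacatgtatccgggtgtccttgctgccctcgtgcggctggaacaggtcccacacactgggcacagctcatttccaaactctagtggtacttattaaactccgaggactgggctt
Olfr1033, chr2:86020475-86020632: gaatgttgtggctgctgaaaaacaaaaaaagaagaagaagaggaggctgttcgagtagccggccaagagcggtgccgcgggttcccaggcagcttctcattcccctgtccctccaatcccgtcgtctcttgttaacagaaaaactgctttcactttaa
Olfr520, chr7:99734614-99734813: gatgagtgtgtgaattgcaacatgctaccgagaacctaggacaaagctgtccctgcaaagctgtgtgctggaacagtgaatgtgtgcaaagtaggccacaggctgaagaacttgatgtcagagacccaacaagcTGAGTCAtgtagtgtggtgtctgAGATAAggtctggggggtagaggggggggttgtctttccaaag
Olfr67, chr7:103792965-103793164: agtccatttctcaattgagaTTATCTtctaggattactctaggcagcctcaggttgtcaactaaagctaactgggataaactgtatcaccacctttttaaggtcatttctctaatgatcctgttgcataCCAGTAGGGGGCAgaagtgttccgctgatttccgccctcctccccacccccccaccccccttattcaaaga
Olfr66, chr7:103870782-103870981: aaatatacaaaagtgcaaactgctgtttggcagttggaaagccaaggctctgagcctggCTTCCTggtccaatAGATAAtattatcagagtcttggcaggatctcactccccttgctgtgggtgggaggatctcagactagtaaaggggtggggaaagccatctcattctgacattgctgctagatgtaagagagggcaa
Olfr66, chr7:103877196-103877395: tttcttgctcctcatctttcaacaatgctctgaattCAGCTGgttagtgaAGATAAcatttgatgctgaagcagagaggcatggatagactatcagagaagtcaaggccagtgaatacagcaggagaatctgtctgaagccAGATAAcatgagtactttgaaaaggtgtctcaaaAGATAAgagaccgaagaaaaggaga
Olfr1507, chr14:52622261-52622460: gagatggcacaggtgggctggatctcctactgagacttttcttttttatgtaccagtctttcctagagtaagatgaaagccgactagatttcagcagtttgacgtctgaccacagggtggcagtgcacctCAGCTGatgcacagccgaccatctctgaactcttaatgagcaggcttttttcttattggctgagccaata
Olfr164, chr16:19241750-19241949: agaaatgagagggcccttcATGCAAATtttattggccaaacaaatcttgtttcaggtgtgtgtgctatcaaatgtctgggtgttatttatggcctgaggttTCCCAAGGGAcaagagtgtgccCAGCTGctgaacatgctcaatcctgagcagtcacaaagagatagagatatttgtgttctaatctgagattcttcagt

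The Olfr658 and Olfr1033 stretches held none of the motifs. The Olfr520 stretch held an AP-1/NF-E2 and a GATA match. The Olfr67 stretch held a GATA match and a match to the CTCF consensus, CTCF being the protein that anchors chromatin loops. The Olfr66 stretches held 1 and 3 GATA matches, the sequence bound by the blood factors GATA1 and GATA2.

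Few of the peaks lay at a receptor promoter. A promoter peak was one with its centre within 500 bp of the TSS listed for the nearest gene, and 7 of the 195 peaks met this, or 3.59% (1.75 to 7.22), where 15.6% of all peaks did. The share among the other 84048 peaks was 15.7% (15.4 to 15.9). The 7 genes were Olfr658, with its peak 19 bp upstream of the TSS, Olfr1033 at 65 bp and Olfr520 at 431 bp upstream, and Olfr643 at 240 bp, Olfr229 at 333 bp, Olfr1511 at 336 bp and Olfr631 at 480 bp downstream. The peak of Olfr420 fell just outside, at 501 bp. Within 1000 bp lay 13 of 195, or 6.67% (3.94 to 11.1), against 18.5% of all peaks. The downstream peaks of Olfr643, Olfr229 and Olfr1511 were annotated as exon and that of Olfr631 as intron.

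Counted by gene, the contrast with the rest of the genome was larger. Of 1125 receptor genes with a curated RefSeq transcript, 7 had a promoter peak, which is 0.622% (0.302 to 1.28). Of all 21000 protein-coding genes 60.4% did, and of the 19893 that were not receptors 63.7% (63.1 to 64.4) did. Among 350 vomeronasal receptor genes, which encode pheromone receptors of the nose and are also clustered, 1 had a promoter peak, or 0.286% (0.0505 to 1.60). The intervals of both receptor families overlapped.

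The position of a receptor TSS depends on the annotation. In RefSeq, 813 of 1118 coding receptor transcripts, or 72.7%, started at the start codon with no 5′ untranslated region, against 1.80% of 36749 other coding transcripts. GENCODE holds upstream exons for more receptors. With its start sites, 13 of 195 peaks lay within 500 bp of a receptor TSS, or 6.67% (3.94 to 11.1), and 5 genes had a promoter peak by both annotations, 2 by RefSeq alone and 8 by GENCODE alone. The peak listed 2191 bp upstream of Olfr699 lay 8 bp from its GENCODE start, that of Olfr417 moved from 3730 to 67 bp, that of Olfr433 from 941 to 126 bp, that of Olfr552 from 6715 to 129 bp and that of Olfr111 from 4127 to 130 bp. By gene, 13 of 1405 GENCODE receptor genes, pseudogenes included, had a promoter peak, or 0.925% (0.542 to 1.58). Of 20790 other genes, protein-coding only, 64.8% did. The share stayed below that of the other genes with either set of start sites.

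**Figure D1:**
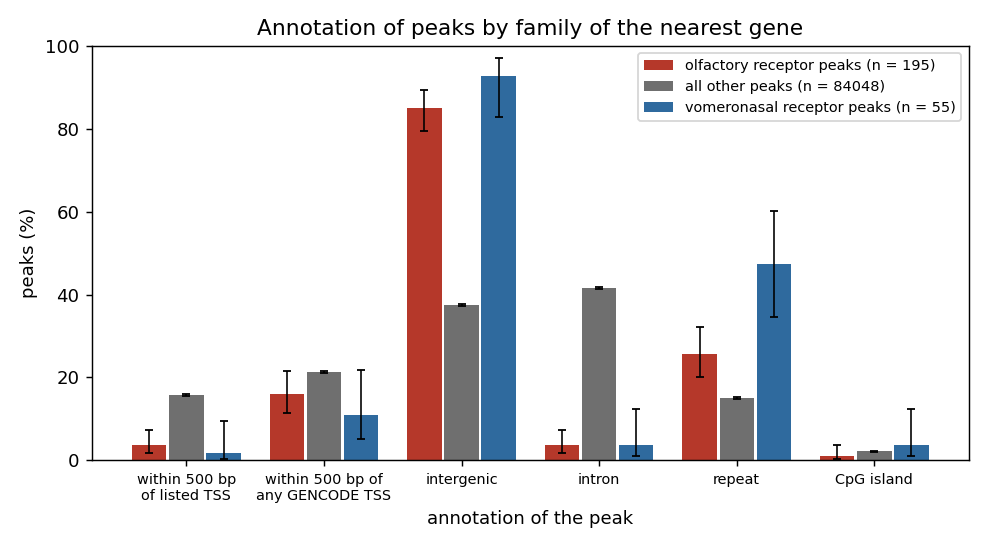
Share of peaks in each annotation (y axis, percent of peaks) for the 195 peaks nearest an olfactory receptor, the 84048 other peaks and the 55 peaks nearest a vomeronasal receptor, with 95% Wilson intervals as error bars. Receptor peaks were mostly intergenic, at 85.1%, and 3.59% lay within 500 bp of the listed TSS against 15.7% of the other peaks.

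Receptor peaks were mainly intergenic. By the annotation classes of the list, 166 of 195 were intergenic, or 85.1% (79.5 to 89.4), where 37.6% of all peaks were. Only 7 were intronic, or 3.59%, against 41.6% of the other peaks. A further 8 were in exons, 8 at transcription termination sites, 4 in the promoter class and 2 in 3′ untranslated regions. Their centres lay at a median of 10422 bp from the TSS, with quartiles at 4541 and 21759 bp, against 16046 bp for the other peaks. Among non-promoter peaks the medians were 10743 and 22324 bp. Peaks over 100000 bp away made up 5.13% (2.81 to 9.18) of the receptor peaks and 11.0% of the others. Upstream of the TSS lay 81 of the 195, or 41.5% (34.9 to 48.6), near the 44.2% of all peaks. A repeat was named in the detailed annotation of 50 peaks, or 25.6% (20.02 to 32.2), against 15.1% of all peaks. LINEs were named for 17 peaks, or 8.72% (5.51 to 13.5), against 2.97% of all peaks. Long terminal repeats were named for 19, or 9.74% (6.33 to 14.7) against 6.59%, and SINEs for 13, or 6.67% (3.94 to 11.1) against 4.13%. A DNA element was named for 1, or 0.513% against 0.684%. CpG islands were named for 2 of 195, or 1.03% (0.282 to 3.66), against 2.21% of all peaks. The median GC content was 43.7%, against 48.9% in the other peaks.

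**Figure D2:**
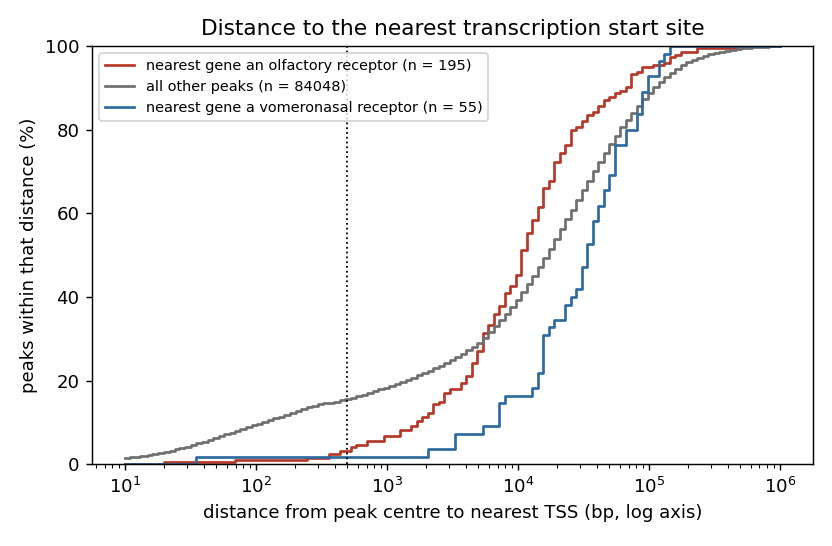
Cumulative share of peaks (y axis, percent) within a given distance of the nearest TSS (x axis, bp, log scale) for peaks nearest an olfactory receptor, all other peaks and peaks nearest a vomeronasal receptor. The dotted line marks 500 bp. The receptor curve starts lower, with 3.59% at 500 bp, and crosses the curve of the other peaks to reach its median of 10422 bp first.

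Accessible sites were scarce inside the receptor clusters. RefSeq places 1427 receptor genes, pseudogenes included, on 19 chromosomes, and runs of at least 5 with gaps of up to 1 Mb gave 31 clusters with 1373 genes over 34.2 Mb. These held 511 peak centres, or 14.9 per Mb (exact Poisson interval for the count, 13.7 to 16.3), against 52.1 per Mb in flanks of 1 Mb on each side and 31.8 per Mb over the genome. Density was lower inside than in the flanks in 29 of 31 clusters, and 8 clusters held 0 peak centres. Of the 511 peaks, 121 were nearest a receptor and 390 were nearest another gene, and the clusters enclosed 202 other protein-coding genes. Of the remaining 74 receptor peaks, 42 lay in the flanks and 32 elsewhere.

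The scarcity was sharper where both neighbours were receptors. Of 1299 stretches between adjoining receptor genes, pseudogenes included, 65 held a peak, or 5.00% (3.95 to 6.33), at 3.18 peaks per Mb. Of 18151 stretches between other genes 55.5% held one, at 23.5 per Mb. Stretches with a receptor on 1 side only stood at 45.1% (38.7 to 51.6) and 24.3 peaks per Mb. The stretches differed in length, with a median of 14510 bp and a mean of 18389 bp between receptors and a median of 16434 bp and a mean of 85869 bp between other genes. In length bands added after these values were seen, 2.33% (1.23 to 4.36) of receptor stretches up to 10000 bp held a peak against 34.9% of the others, 4.26% (2.80 to 6.42) against 57.4% from there to 20000 bp, and 7.43% (5.19 to 10.5) against 68.6% from there to 50000 bp. Because the authors kept only uniquely placed reads, the share of sampled positions whose 100-base sequence occurs once in the genome was measured, and it was 91.3% inside the clusters, 93.1% in the flanks and 90.9% over the genome. For 50-base sequences it was 83.0% inside, 88.4% in the flanks and 86.0% over the genome. These shares count exact matches only, and the part of read placement in the scarcity was not tested.

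**Figure D3:**
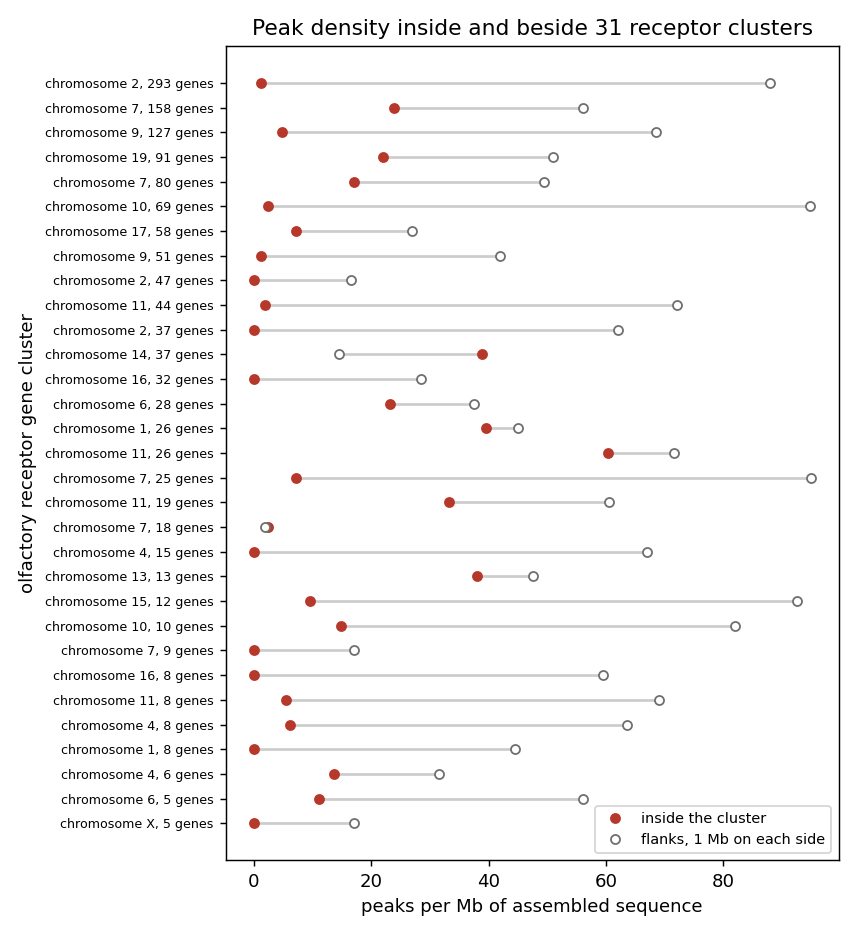
Peaks per Mb (x axis) inside each of 31 receptor clusters (filled) and in its flanks (open), with clusters ordered by number of receptor genes (y axis). The cluster with 293 genes on chromosome 2 had 1.18 peaks per Mb inside and 88.0 in its flanks, and 2 clusters, on chromosomes 14 and 7, lay on the other side.

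The clusters differed widely among themselves. The cluster with the most genes, on chromosome 2 from 85.3 to 90.4 Mb, held 293 receptor genes and 6 peaks, at 1.18 per Mb against 88.0 in its flanks. All 6 were nearest a receptor, and 1 was the promoter peak of Olfr1033. Other clusters of chromosome 2, with 47 and 37 genes, held 0 peaks, as did a cluster of 32 genes on chromosome 16. The 6 clusters with the most receptor peaks were on chromosome 7 from 102 to 105 Mb, with 29 receptor peaks among 69, chromosome 14 from 49.9 to 52.5 Mb, with 11 among 101, chromosome 7 from 107 to 109 Mb, with 10 among 38, chromosome 19, with 9 among 46, chromosome 9 from 37.7 to 40.2 Mb, with 9 among 12, and chromosome 1 from 173 to 174 Mb, with 8 among 59. The exceptions to the lower density were the cluster on chromosome 14, at 38.8 per Mb inside and 14.5 in its flanks with 49 other protein-coding genes inside, and a small one on chromosome 7 with 1 peak inside, at 2.34 against 2.00 per Mb.

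By chromosome the peaks did not follow the number of receptor genes. Chromosome 2 carried 377 receptor genes and 8 receptor peaks, or 2.12 per 100 genes. Chromosome 7 carried 294 genes and 52 peaks, or 17.7 per 100, and chromosome 9 carried 179 genes and 10 peaks, or 5.59 per 100. Chromosome 3, with 5 receptor genes, had 8 peaks, and chromosome 8, also with 5, had 6. Chromosomes 5, 12 and X carried 3, 3 and 8 receptor genes and 0 peaks.

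**Figure D4:**
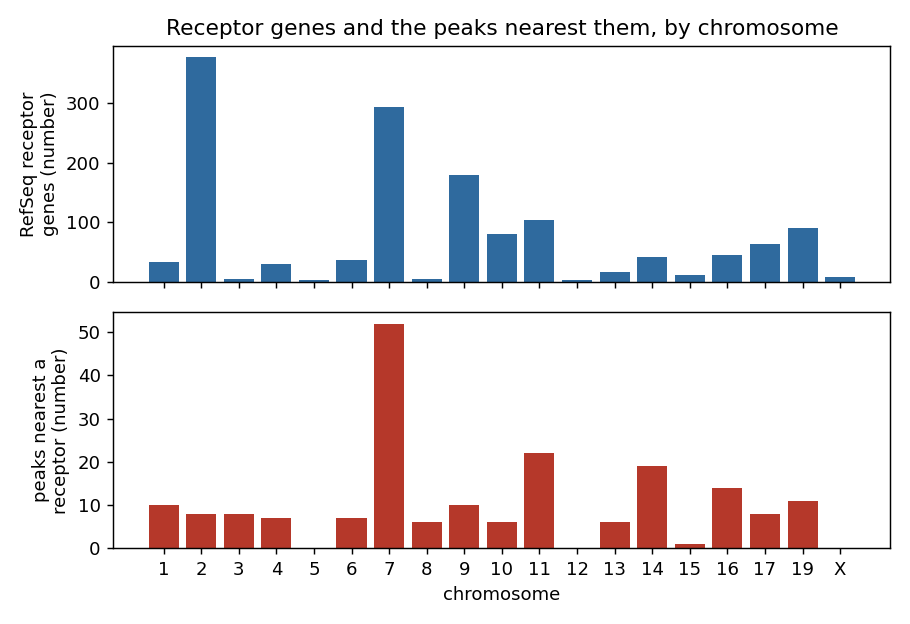
Number of RefSeq olfactory receptor genes (upper bars) and of peaks nearest a receptor (lower bars) on each chromosome (x axis). Chromosome 2 has 377 genes and 8 peaks, while chromosome 7 has 294 genes and 52 peaks.

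Most of the receptor genes named by a peak had a single one, and the few with the most peaks had various neighbours. Of the 130 genes, 93 had 1 peak and 26 had 2. Olfr164 on chromosome 16 had 9, at 23302 to 139961 bp from its TSS, and 8 of these lay inside the immunoglobulin lambda light chain locus. Olfr1507 on chromosome 14 had 7, at 52430 to 231220 bp, all inside the T cell receptor alpha locus. In all 17 receptor peaks, or 8.72% (5.51 to 13.5), lay inside an antigen receptor locus, where 0.404% of all peaks did, 9 in the T cell receptor alpha and 8 in the immunoglobulin lambda locus, and 0 of the 84243 peaks were given a V, J or C segment as the nearest gene.

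With GENCODE start sites, which include these segments, 11 of the 195 peaks were nearest an immunoglobulin or T cell receptor segment and 7 of the 11 lay within 500 bp of one. A peak listed at 71426 bp from Olfr1507 lay 77 bp from the start of Trav2, that at 126666 bp lay 205 bp from Trav5-1, that at 158911 bp lay 211 bp from Trav7-1 and that at 231220 bp lay 303 bp from Trav6d-3. The peak of Olfr1510 lay 112 bp from Trav1. Peaks listed at 86396 and 44891 bp from Olfr164 lay 6 bp from Iglc2, a lambda constant segment, and 160 bp from Iglv3, a lambda variable segment. The Iglv3 sequence shown above carried the octamer ATGCAAAT, known from immunoglobulin promoters, and an EBF match, EBF1 being a factor of early B cells. The octamer was searched after the sequence was seen, and it stood in 6 of 195 receptor peaks, or 3.08% (1.42 to 6.55), against 3.37% of all peaks.

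Counting any GENCODE start site, 31 of 195 receptor peaks lay within 500 bp of one, or 15.9% (11.4 to 21.7), where 21.3% of all peaks did. Of the 31, 13 were at receptor starts, 7 at antigen receptor segments, 3 at other protein-coding genes and 8 at non-coding genes or pseudogenes. The Olfr643 peak is among the 3, since GENCODE gives the start 240 bp from its centre, at the same distance as the listed Olfr643 TSS, to 4930516K23Rik. In all, the nearest GENCODE start belonged to a receptor for 140 of 195 peaks, or 71.8% (65.1 to 77.6), whereas the nearest curated RefSeq start did for 193.

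Olfr1423 on chromosome 19 had 6 peaks, 9941 to 34336 bp away, and 3 of them were 96, 299 and 71 bp from transfer RNA genes. Over all receptor peaks, 5 of 195 lay within 500 bp of a transfer RNA gene, or 2.56% (1.1 to 5.86), where 0.177% of all peaks did, and this feature was chosen after the values were seen. Olfr266 on chromosome 3 had 5 peaks and lay beside Cd53, a leukocyte surface protein, whose body was 19339 bp from the nearest of them. Olfr521 on chromosome 7 had 4, the first 40 bp from the start of the non-coding gene F730035P03Rik. Olfr225 on chromosome 11 had 4. Olfr267, Olfr374, Olfr545, Olfr1396 and Olfr1402 had 3 each. The peaks farthest from a receptor TSS were those of Olfr161, at 469395 bp, Olfr1507, at 231220, 225136 and 158911 bp, and Olfr1505, at 161691 bp.

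The class I cluster of chromosome 7 held the most receptor peaks. Over 158 receptor genes, 29 peaks were nearest a receptor and 40 nearest another gene. Within 100 kb of the beta-globin genes, which encode the beta chains of hemoglobin, stood 8 receptor peaks. On the adult-globin side, the Olfr67 peak lay 19459 bp and the Olfr630 peak 50086 bp from Hbb-bt. On the side of the embryonic gene Hbb-y, the Olfr66 peaks lay 17675 and 24089 bp from it, the Olfr65 peak 56987 bp, the Olfr631 peaks 59958 and 62335 bp and the Olfr633 peak 89707 bp. The nearest to a receptor TSS was the Olfr631 peak, at 480 bp. The Olfr66 peaks stood between Hbb-y and Olfr66, at 11359 and 4945 bp from the receptor's TSS, and whether they act on either gene was not tested.

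**Figure D5:**
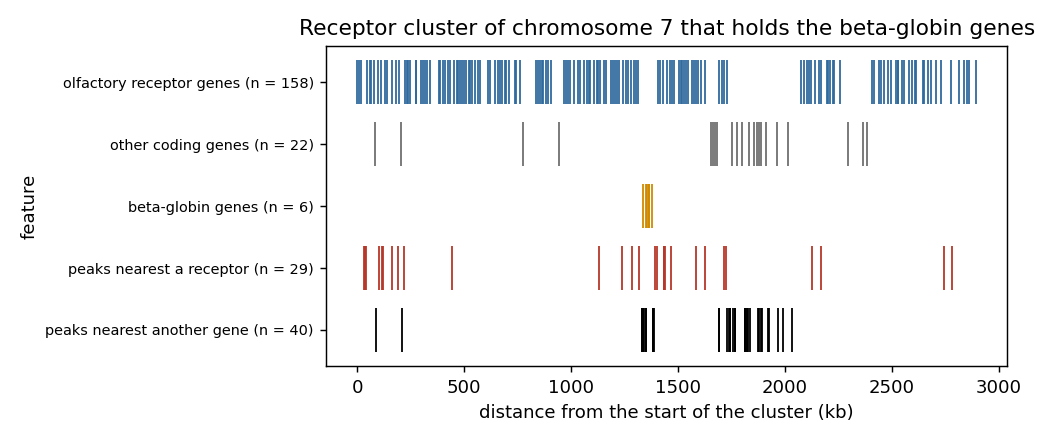
Positions along the receptor cluster of chromosome 7 (x axis, kb from its first gene) of 158 olfactory receptor genes, 22 other coding genes, 6 beta-globin genes, 29 peaks nearest a receptor and 40 peaks nearest another gene. Receptor peaks stand at both ends and beside the globin genes. Peaks are labelled by their nearest gene, so those nearest another gene lie by such genes by definition.

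Receptor genes stood on both sides of 65 of the 195 peaks, or 33.3%. The distance to the next peak was a median of 10695 bp, against 4589 bp for the other peaks, and 20 receptor peaks, or 10.3%, had no other peak within 100 kb, against 1.23% of the others. Motif searches covered both strands of each whole peak, all being of equal width. The EBF motif TCCCNNGGG, which olfactory neurons and B cells share, stood in 14 of 195 receptor peaks, or 7.18% (4.32 to 11.7), against 9.84% of all peaks, and over the central 200 bp alone in 4.62% (2.45 to 8.54) against 4.59% of the other peaks. The motif TAATTA of LHX2, a homeodomain factor of receptor choice, stood in 12.8% (8.84 to 18.2), against 8.69% of the other peaks. The consensus of CTCF stood in 11, or 5.64% (3.18 to 9.82), against 3.1% of all peaks. Of the blood motifs, the letters AGATAA, bound by GATA factors, stood in 24.6% (19.1 to 31.1) against 24.1%, and AACCACA, bound by RUNX1, in 19% (14.1 to 25.1) against 16.1%. AGGAAG, the core of ETS factors, stood in 56.9% (49.9 to 63.7) against 62.4%. The longer PU.1 motif GAGGAAGT, which contains the ETS letters, stood in 8.21% (5.11 to 12.9) against 9.39%, TGACTCA of AP-1 and NF-E2 in 7.69% (4.72 to 12.3) against 10.8%, and the E-box CAGCTG in 24.1% (18.6 to 30.6) against 29.8%. Promoter peaks were rarer among receptor peaks, so non-promoter peaks were also compared. There AGATAA stood in 23.9% (18.4 to 30.5) against 26.9% of the others, the only motif to change direction in this comparison. AGGAAG stood in 56.9% (49.8 to 63.8) against 65.0% and TGACTCA in 6.91% (4.09 to 11.5) against 11.9%. TAATTA stood in 13.3% (9.17 to 18.9) against 9.83%, and the CTCF consensus in 5.85% (3.30 to 10.2) against 3.61%. A match is a string of letters and shows no binding.

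Genes of the olfactory pathway outside the receptor family had promoter peaks in larger shares than the receptors, beside 60.4% of all protein-coding genes. Of 14 genes of odorant signalling, 12 had at least 1 peak and 5, or 35.7%, a promoter peak. The 5 were Gnal, the G protein subunit of olfactory transduction, Adcy3, the adenylate cyclase it activates, Reep1, Ric8b, a chaperone of that G protein, and Slc24a4, an ion exchanger. Cnga2, the channel subunit opened by cyclic AMP in the cilia, had 0 peaks and its nearest stood 175103 bp away. The nearest peak to Omp, the olfactory marker protein, stood 4717 bp from its TSS. Of 10 regulators of receptor choice, 9 had a peak and 8, or 80.0%, a promoter peak, among them Lhx2, at 248 bp, its cofactor Ldb1, at 21 bp, and Lbr, a nuclear lamina receptor, at 22 bp. Ebf1, with 18 peaks, had its nearest at 913 bp from a TSS. Emx2 was the nearest gene of 0 peaks, though a peak stood 4304 bp from its TSS. Most of these regulators also act in other tissues.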

How the data were processed

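Accessible chromatin was profiled by ATAC-seq in 12 samples of 6 cell types. The authors processed reads with the ENCODE ATAC-seq pipeline, discarded multimapping reads and kept peaks at an irreproducible discovery rate cut. They pooled these into 1 non-overlapping list, annotated with HOMER 4.10.2 (submitters' processing notes). According to the paper, the pooled peaks were also filtered with the chromVAR package to the most significant ones. The paper counts more promoter peaks in HSCs alone than in the filtered list. The part of this filter in the promoter shares was not tested. The deposited score of each peak is 0 in all 84243 rows, so no signal was used, and 0 columns hold values of single samples. Coordinates and signed distances to a TSS were used as deposited (mm10).

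Sequence, genes and curated transcripts came from RefSeq for GRCm38, and further start sites, untranslated regions and antigen receptor loci from GENCODE vM21. Clusters were runs of at least 5 receptor genes with gaps of up to 1 Mb. Intervals are 95% Wilson intervals. Uniqueness was measured at 20000 positions drawn per region. Named genes were all receptors with a promoter peak, the 10 with the most peaks (and Olfr1402, tied with the last of them), clusters by peaks and genes, the 5 farthest peaks and the peaks near the globin genes. Members, gene lists and motifs were chosen with earlier results of these data known. Functions were tested on simulated data in Python 3 with numpy, pandas and scipy.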

Additional observations from a re-analysis of the deposited data

How the results depend on the processing

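Of 39 other settings, 25 gave a value within the interval of the reported one, and of 7 chosen after seeing the data 5 did. The 25 include the settings without pseudogene symbols, which removed 0 peaks and so had to give the same value. The promoter share of 3.59% became 1.03% within 100 bp and 15.9% with any GENCODE TSS, and the gene-level share of 0.622% became 0.178% within 100 bp. The median distance of 10422 bp became 7169 bp to a GENCODE receptor TSS, with 99 distances shorter, 33 longer and 63 equal. The intergenic share became 70.8% outside every RefSeq gene body, a measure for which no share of the other peaks is given here. By soft-masked bases the repeat share became 14.9% (10.6 to 20.5), against 9.61% of the other peaks on the same measure. The share with receptors on both sides became 41.0% with protein-coding genes only. Cluster density became 9.97 per Mb with gaps of up to 0.5 Mb, 19.9 with gaps of up to 2 Mb, and 16.4 and 18 per Mb of sequence unique at 100 and 50 bases. The inside-to-flank ratio of 0.286 became 0.340 without the cluster with the most genes and 0.243 without that with the most peaks. With 1 mismatch allowed, EBF matches stood in 52.8% (45.8 to 59.7) of receptor peaks against 69.0% of the others and CTCF matches in 20.5% (15.4 to 26.7) against 11.4%. The median GC content was 46.5% over the central 200 bp, against 51% in the other peaks. Over those bases EBF matches stood in 4.62% of receptor and 4.59% of other peaks, so the direction of the EBF difference depended on the search. No paired analysis was possible because the list pools the samples, and for the same reason no replicate could be left out. Depth limits every count: a weak peak open in 1 cell type may be missing from the list.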

Other observations

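The vomeronasal receptor genes, a second clustered family of chemosensory receptors, also had few promoter peaks and low density inside clusters, but their peaks lay farther from a TSS. Of 84243 peaks, 55 had such a gene as the nearest, and 1 of these lay within 500 bp of its TSS, or 1.82% (95% Wilson interval 0.322 to 9.61). Their median distance to a TSS was 31983 bp, against 16046 bp for the peaks not nearest an olfactory receptor and 10422 bp for those nearest one, and 51 of 55 were intergenic. A repeat was named in 47.3% (34.7 to 60.2) of them, against 15.1% of all peaks. Long terminal repeats were named for 17, or 30.9% (20.3 to 44.0), against 6.59% of all peaks. In 14 vomeronasal clusters of 24.8 Mb stood 138 peaks, or 5.57 per Mb, against 52.1 per Mb in their flanks, and density was lower inside in 14 of 14. Unique 100-base sequence made up 69.6% of positions there, against 91.3% in the olfactory clusters, and the part of this in the lower density was not tested. Of 285 stretches between adjoining vomeronasal genes, 20 held a peak, or 7.02% (4.59 to 10.6).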
